A study of Mus musculus with 12 samples.

Results

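The genes described here are 49 markers of dividing cells, 21 that act mainly in S phase, when DNA is copied, and 28 that act mainly in mitosis, when the copies are parted. They were taken from the gene table by symbol from a list of named genes, not by how they behaved, and make up 49 of its 54532 genes. The study measured RNA in whole tibialis anterior muscle of mice, 5 days after glycerol was injected to injure it. Its 2 groups, of 6 libraries each, are labelled wild type (called control here) and FAP no ppary (called knockout here), the second from mice with a conditional deletion of Pparg in fibro-adipogenic progenitors, the mesenchymal cells of muscle that can turn into adipocytes. All 12 libraries carry the strain label 129svlmJ, and all received glycerol, so no uninjured muscle enters the comparison. The labels used here name neither the driver of the deletion nor the share of progenitors in which it took place. Nor do they state that each library is a different animal, and the p-values below are therefore set against the variation among these 12 samples alone.

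Cells that enter division first build the cyclin E and E2F activity that starts S phase, load the MCM helicase on origins of replication and make the nucleotides and clamps that replication uses. They then raise cyclin B with CDK1, condense their chromosomes and part them on a spindle under the control of mitotic kinases and of the anaphase-promoting complex. In injured muscle, satellite cells, fibro-adipogenic progenitors, macrophages and endothelial cells all divide in the first days, so in a lysate of whole muscle these transcripts come from several cell types. In such bulk samples, fewer dividing cells and less of a transcript per cell cannot be told apart.

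The libraries held between 15716056 and 29790720 counts, and the difference between groups was small beside their spread (two-sided exact permutation test, n = 6 per group, p = 0.820). Levels are given in CPM, which are counts scaled to the size of the library, with the TMM correction for library composition. Pparg, the targeted gene, had 57.4 ± 8.27 CPM (SD, n = 6) in controls and 26.4 ± 10.3 CPM in knockouts, and every knockout library lay below every control library. Its log2 fold change was -1.12 (adjusted p = 0.0299, edgeR quasi-likelihood test with Benjamini-Hochberg adjustment). This call was lost without any one of controls 1, 2, 4, 5 and 6 or knockouts 3, 4 and 6, with log2 fold changes from -1.32 to -1.002 when 1 library was left out. The tissue label was checked with 10 skeletal muscle fibre genes, which summed to between 18825 and 62100 CPM. Their sum was lowest in control 2 (22104 CPM), control 6 (22824 CPM) and knockout 6 (18825 CPM), against 39339 CPM or more in the other libraries. The same 3 libraries had the lowest shares of mitochondrial counts, from 2.66% to 3.92%. The sum of 8 adipocyte genes was between 3551 and 5342 CPM in controls and between 696 and 2431 CPM in knockouts. Of the 8, 4 fell past the test, against 0.750% of all genes tested. Pparg itself is on this list and among the 4.

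Transcripts of S phase and mitosis had similar levels in the muscles of both genotypes, within the intervals given below. All 49 genes passed the filter on low counts, and none passed the test between knockout and control at an adjusted p under 0.05 (edgeR quasi-likelihood test with Benjamini-Hochberg adjustment over 16393 genes, of which 0.799% passed, 0.0488% as higher and 0.750% as lower). At an unadjusted p under 0.05 there was 1, E2f8, against 9.47% of all genes tested. DESeq2 called 0 of the 49 and limma-voom called 1, again E2f8. In none of the 49 did the 6 knockout libraries lie apart from the 6 controls, which was so for 1.43% of all genes tested.

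The fold changes were small in both directions. The log2 fold change, knockout minus control, was positive in 34 genes and negative in 15, with a median of 0.05 against -0.00 for all genes tested. It ran from -0.14 (Ccnb2) to 0.44 (E2f8), and the second highest was 0.21 (Rrm2). Over the 49 genes, the 95% intervals of the fold change reached from 0.728-fold (Birc5, the lowest bound) to 1.67-fold (E2f8, the highest bound). Without E2f8 the highest bound was 1.46-fold, for Rrm2. Larger changes than these in either direction lie outside the intervals of the single genes.

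**Figure D1:**
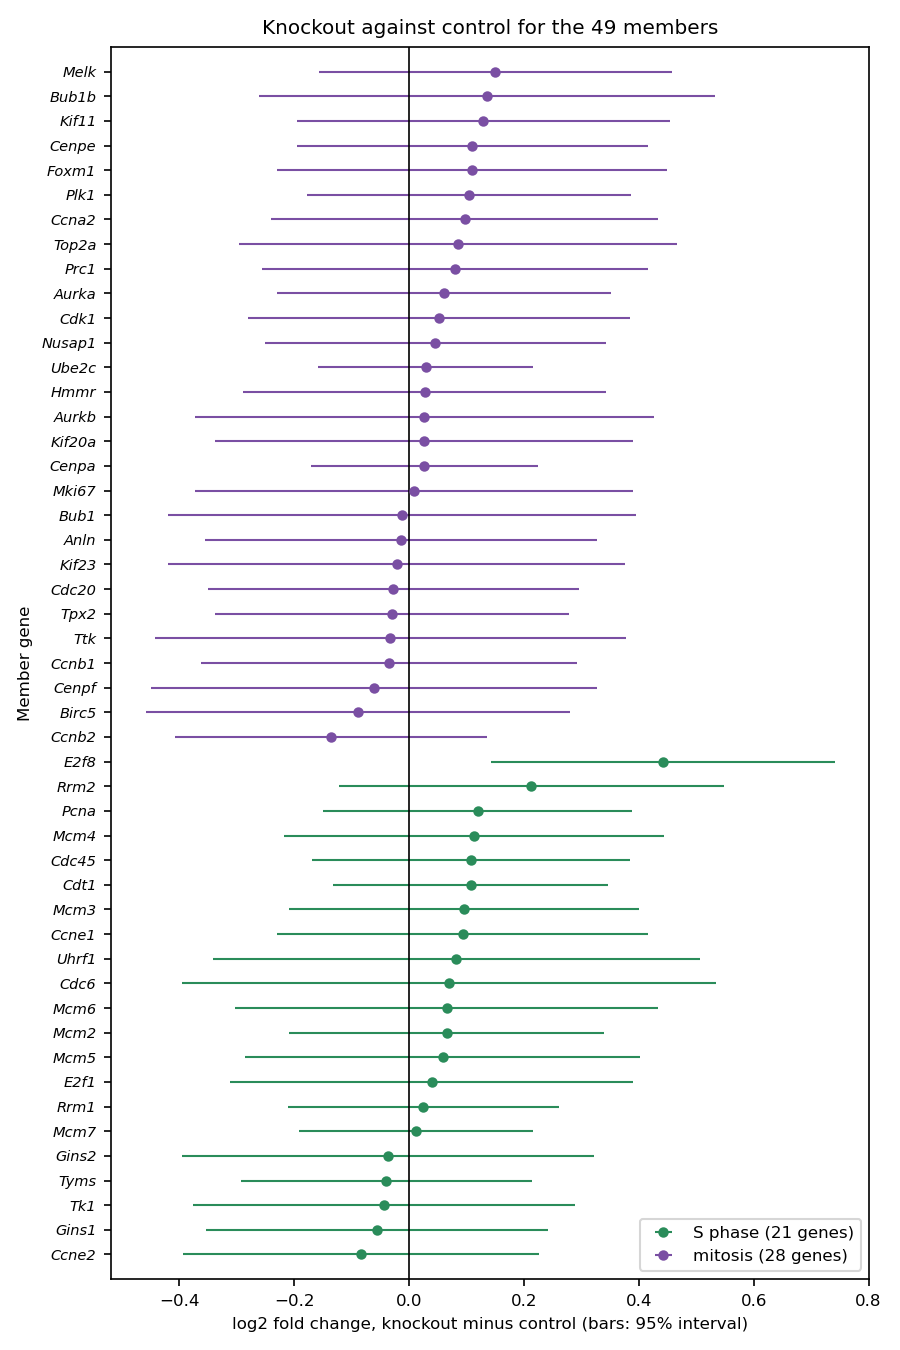
Fold change of each of the 49 genes between knockout and control, on the log2 scale (horizontal axis), with 95% intervals, for 21 S phase and 28 mitosis genes (vertical axis). The points lie between -0.14 and 0.44, and E2f8 is the gene whose interval does not include 0.

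The libraries within a group differed more than the group means did. The ratio of the highest to the lowest of 6 libraries had a median over the 49 genes of 1.65 in controls and 1.72 in knockouts, against 1.47 and 1.55 for all genes tested. The same libraries were high and low for most of the genes. Control 6 was the highest control for 41 of the 49 genes, 17 of S phase and 24 of mitosis. Knockout 6 was the highest knockout for 44, 18 of S phase and 26 of mitosis. At the low end, control 4 was the lowest control for 28 genes and control 3 for 13, while knockout 4 was the lowest knockout for 25 and knockout 3 for 22. Controls 1 and 5 stood above the median of their group for 46 genes each.

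Mki67, whose product coats mitotic chromosomes and marks cycling cells, shows this pattern at the highest CPM of the 49. Its level was 133.8, 104.8, 109.6, 95.5, 150.8 and 182.7 CPM in controls 1 to 6. In knockouts 1 to 6 it was 124.0, 136.7, 101.3, 100.5, 135.2 and 184.0 CPM. The ranges of the groups nearly coincide, with library 6 on top in each, and the means were 129.6 ± 33.1 and 130.3 ± 30.7 CPM (SD, n = 6). The log2 fold change was 0.01 with a standard error (SE) of 0.18 and an interval of -0.37 to 0.39.

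Top2a, the topoisomerase that untangles replicated chromosomes, had 93.1, 78.9, 72.7, 65.1, 104.5 and 121.2 CPM in controls 1 to 6. In the knockouts it had 96.7, 102.2, 69.4, 71.3, 95.4 and 133.2 CPM. As for Mki67, libraries 3 and 4 were low and library 6 was high in both groups, and the log2 fold change of 0.09 (SE 0.18) was below the spread between libraries. Nothing in the labels links a control to the knockout of the same number.

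Libraries 6 of both groups were also among the 3 with few fibre transcripts. The third of these, control 2, was the lowest control for 8 of the 49 genes and the highest for 0. In Cdt1, Gins1, Tyms, Aurka and Ube2c the highest knockout was a library other than knockout 6. Whether the amount of fibre RNA has a part in the level of these genes was not tested. Without the 3 libraries the median log2 fold change of each list moved by less than the SD of its level between control libraries. That SD, 0.25 for S phase and 0.28 for mitosis, is wider than the main medians of 0.07 and 0.03. Such a rule would not register a change of sign. In that edgeR fit 0 of the 49 passed, but so did only 9 of all genes tested (0.0541%), and Pparg was not among them. With so few calls, the 0 says little about the 49.

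**Figure D2:**
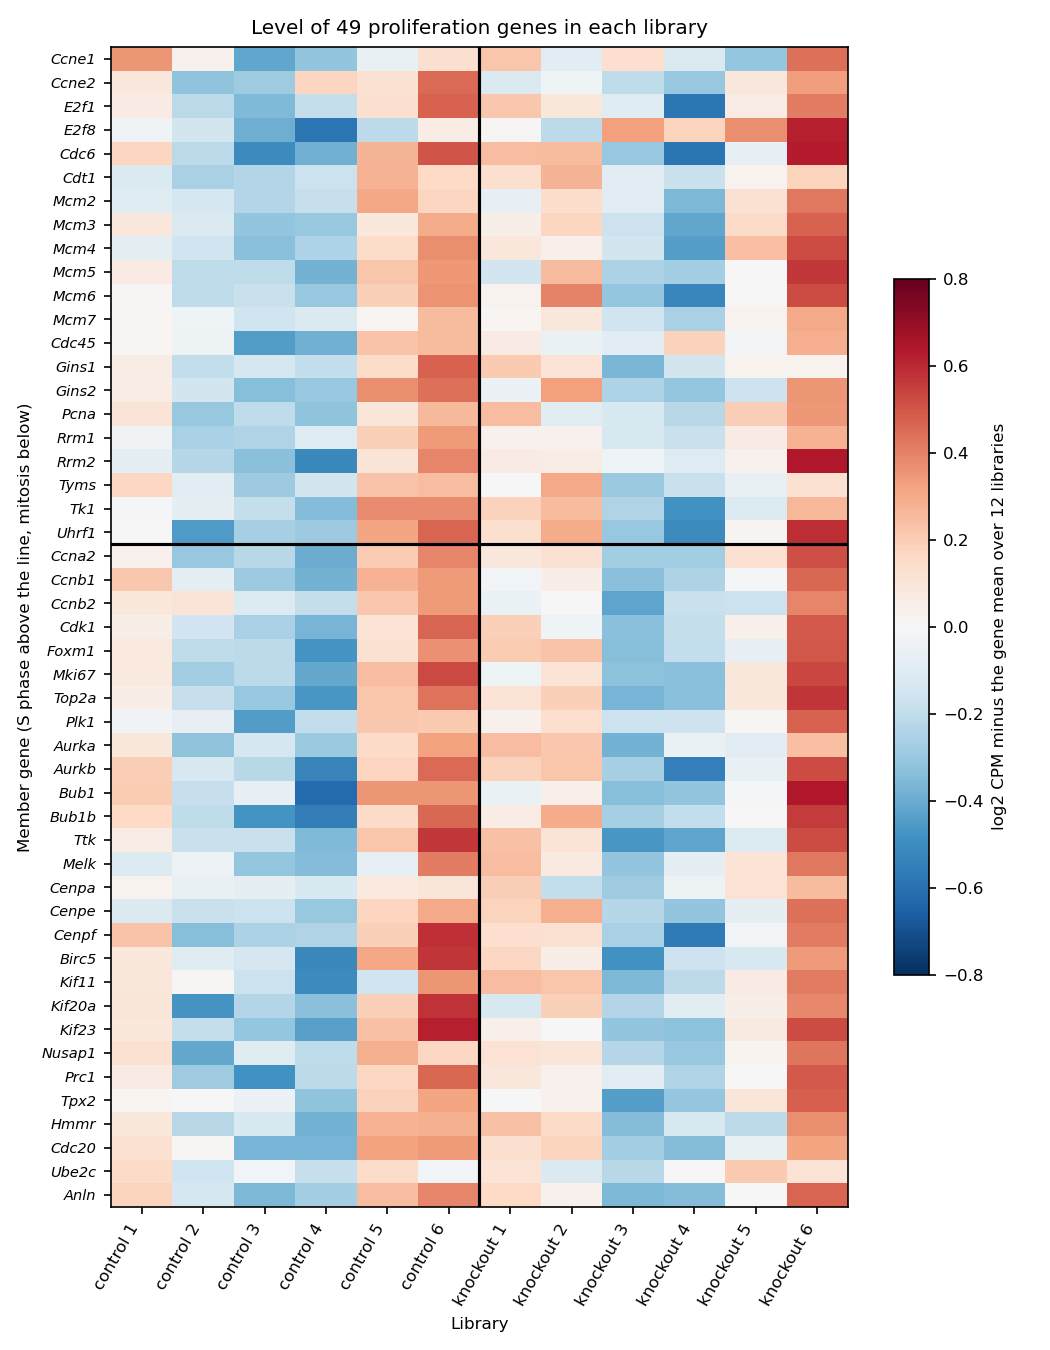
Level of each of the 49 genes (rows) in each of the 12 libraries (columns), as log2 CPM minus the mean of the gene over all libraries (colour, red higher and blue lower). Columns of one colour run through both lists: control 6 and knockout 6 are red and libraries 3 and 4 of both groups are blue for most genes.

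The promoters are shown because most of these genes had their high and low values in the same libraries. Whether the motifs have a part in that pattern was not tested. RefSeq promoter windows (build GRCm38.p6) matched 40 of the 49 genes, with 43 windows in all, and the 250 bases before each start were searched on both strands. The genes without an entry were Ccne2, Foxm1, Aurkb, Tpx2, Mcm4, Kif20a, Gins2, Ccna2 and Gins1. The E2F element, bound by the E2F factors that open S phase, was searched as the word TTCCCGC, its variant TTGGCGC, the further variant TTCGCGC and the last variant TTGCCGC. The cell cycle homology region or CHR, bound by the DREAM and MuvB complexes at late cell cycle genes, was searched as TTTGAA and in its variant form TTTAAA. The CCAAT box, bound by NF-Y, was searched as that word. The E2F words can overlap each other and the CCAAT box.

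E2F words were found in 10 of 19 S phase windows (52.6%) and in 4 of 24 mitosis windows (16.7%). These windows belong to 17 and 23 genes, so some genes count more than once. The S phase genes with an E2F word were Cdc6, E2f8, Mcm5, Mcm6, Mcm7, Rrm1, Rrm2 and Uhrf1. In mitosis they were Ccnb1, Cdk1, Hmmr and Mki67. E2F words were found in 7.89% of all 32851 windows of the table and in 9.999% of those of protein-coding genes. The CHR showed the opposite order, with 31.6% of S phase and 54.2% of mitosis windows against 25.2% of all windows. CCAAT boxes were frequent in both lists, in 68.4% and 83.3%, against 33.8% of all windows. A CHR together with a CCAAT box was in 50% of mitosis windows, 21.1% of S phase windows and 8.78% of all windows.

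**Figure D3:**
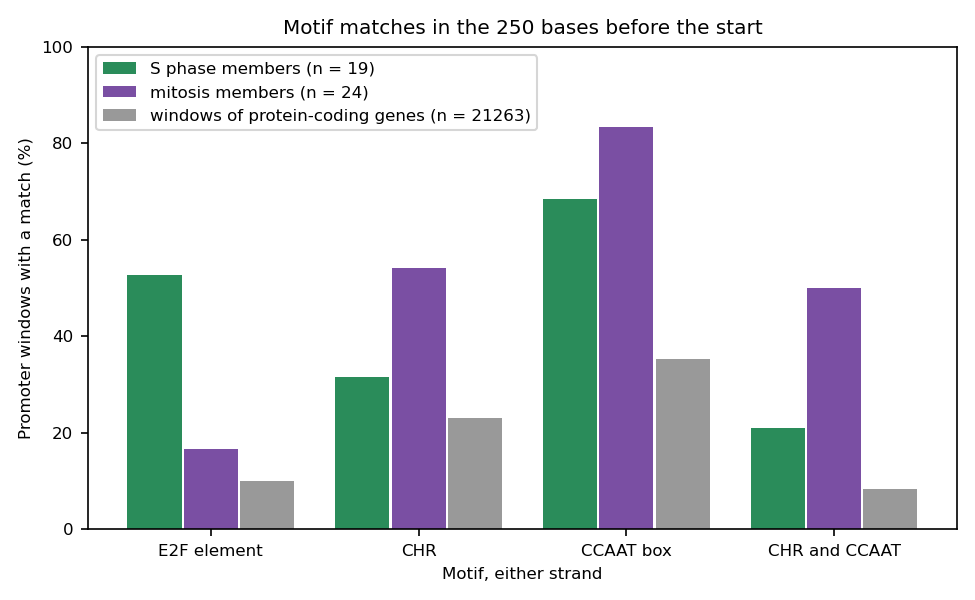
Share of promoter windows (vertical axis, percent) that hold each motif on either strand within 250 bases before the start, for S phase genes (19 windows), mitosis genes (24 windows) and protein-coding genes (21263 windows). The E2F element is most frequent in the S phase windows and the CHR in the mitosis windows.

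The S phase windows printed are those of the 3 genes of highest CPM that hold an E2F word, which is in capitals. They come from Rrm1, which encodes the large subunit of ribonucleotide reductase (chr7:102441445-102441694, plus strand), and from Mcm6 (chr1:128359706-128359955, minus strand) and Mcm7 (chr5:138171884-138172133, minus strand), which encode subunits of the replicative helicase. Each is written 5′ to 3′ on the strand of the gene. The samples are labelled 129svlmJ and the reference is another strain, so the letters are those of the reference.
Rrm1: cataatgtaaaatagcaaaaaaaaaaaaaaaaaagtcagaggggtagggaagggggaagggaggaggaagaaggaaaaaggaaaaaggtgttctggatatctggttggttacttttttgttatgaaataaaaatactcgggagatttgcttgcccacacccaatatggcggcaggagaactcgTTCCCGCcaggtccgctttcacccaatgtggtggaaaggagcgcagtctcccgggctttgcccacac
Mcm6: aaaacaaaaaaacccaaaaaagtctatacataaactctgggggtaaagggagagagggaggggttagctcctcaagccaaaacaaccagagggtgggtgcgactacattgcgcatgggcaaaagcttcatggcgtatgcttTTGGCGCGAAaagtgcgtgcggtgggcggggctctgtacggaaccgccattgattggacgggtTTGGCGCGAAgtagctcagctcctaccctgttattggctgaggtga
Mcm7: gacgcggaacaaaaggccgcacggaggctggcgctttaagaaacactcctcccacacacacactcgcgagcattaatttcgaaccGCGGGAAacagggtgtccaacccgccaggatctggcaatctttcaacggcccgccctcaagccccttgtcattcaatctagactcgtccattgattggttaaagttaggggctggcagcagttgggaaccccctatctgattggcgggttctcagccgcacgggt
Mcm6 holds 4 matches in 2 places, because each run in capitals reads as an E2F word on both strands.

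The mitosis windows printed are those of the 3 genes of highest CPM that hold both a CHR and a CCAAT box, with both in capitals. They come from Mki67 (chr7:135716380-135716629, minus strand), Top2a (chr11:99024190-99024439, minus strand) and Cenpa, which encodes the histone H3 variant of centromeres (chr5:30666636-30666885, plus strand).
Mki67: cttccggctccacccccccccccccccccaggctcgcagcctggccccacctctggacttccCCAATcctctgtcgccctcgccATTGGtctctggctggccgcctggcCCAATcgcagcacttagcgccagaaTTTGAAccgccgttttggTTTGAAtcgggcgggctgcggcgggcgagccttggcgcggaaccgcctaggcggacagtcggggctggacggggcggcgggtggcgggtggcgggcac
Top2a: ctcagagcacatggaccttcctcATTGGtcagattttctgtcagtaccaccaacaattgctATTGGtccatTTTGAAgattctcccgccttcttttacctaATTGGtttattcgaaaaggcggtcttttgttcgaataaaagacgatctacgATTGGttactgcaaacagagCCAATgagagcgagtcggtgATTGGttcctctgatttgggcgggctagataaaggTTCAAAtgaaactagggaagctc
Cenpa: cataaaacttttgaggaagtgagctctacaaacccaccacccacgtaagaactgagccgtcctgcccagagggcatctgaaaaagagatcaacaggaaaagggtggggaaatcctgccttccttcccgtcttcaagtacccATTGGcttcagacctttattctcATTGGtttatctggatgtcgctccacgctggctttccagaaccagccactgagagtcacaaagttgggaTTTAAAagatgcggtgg
In these windows the CHR nearest the start begins 98 bases before it in Mki67, 23 in Top2a and 17 in Cenpa. In the other mitosis genes with a CHR the nearest began 15 bases before the start in Cdk1, 18 in Cdc20, 19 in Kif11, 29 in Plk1 and Ube2c, 30 in Prc1 and 42 in Ccnb1, and farther away in Cenpf (154), Ccnb2 (167) and Birc5 (220). In the S phase genes with a CHR the distance was 15 bases in Ccne1, 20 in E2f8, 70 in Mcm2, 128 in Tk1, 221 in Mcm5 and 240 in Cdc45, so near and far places occurred in both lists. A match describes the letters of the window and does not show that a factor binds there.

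Among the regulators of S phase entry, E2f8 had the largest difference of the 49 genes. E2f8 encodes an atypical E2F that represses E2F targets and is itself made in S phase (ENSMUSG00000046179, GRCm38 chr7:48866429-48881596, minus strand). Its level was 20.0, 18.5, 15.6, 13.7, 17.6 and 21.3 CPM in controls 1 to 6, and 20.5, 17.6, 25.6, 23.1, 26.5 and 31.5 CPM in knockouts 1 to 6. Knockouts 3 to 6 lay above every control, while knockouts 1 and 2 lay within the control range. The means were 17.8 ± 2.80 and 24.1 ± 4.85 CPM (SD, n = 6), a log2 fold change of 0.44 (SE 0.14), or 1.36-fold with an interval of 1.10 to 1.67. With edgeR's quasi-likelihood test the p of 0.00693 became 0.220 after Benjamini-Hochberg adjustment, so the difference did not pass. The adjusted p was 0.0979 with DESeq2 and 0.0470 with limma-voom, and lay between 0.0810 and 0.434 when 1 library was left out of the edgeR fit. The level of E2f8 relative to E2f1 was 0.895 to 1.25 in controls and 0.966 to 2.01 in knockouts.

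The E2f8 window (chr7:48881597-48881846, minus strand) is printed for this gene's p, a choice made after its values were seen, with its E2F word in capitals.
E2f8: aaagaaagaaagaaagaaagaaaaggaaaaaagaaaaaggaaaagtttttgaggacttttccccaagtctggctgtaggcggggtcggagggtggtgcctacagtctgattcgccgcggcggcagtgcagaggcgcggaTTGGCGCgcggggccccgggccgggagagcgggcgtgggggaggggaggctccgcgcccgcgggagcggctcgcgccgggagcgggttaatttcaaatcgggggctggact
It also holds a CHR that begins 20 bases before the start and a CCAAT box that overlaps the E2F word. Of the exonic bases of E2f8, 11.2% overlap Gm2788 on the other strand, whose mean was 0.368 CPM for controls and 0.544 CPM for knockouts.

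Of the knockout libraries that were high in E2f8, numbers 3, 4 and 5 differed from the controls in cell type markers too. In knockout 6, the highest in E2f8, the satellite cell, progenitor, macrophage and myocyte sums lay within the control ranges. Knockouts 3, 4 and 5 had the highest sums of 10 satellite cell and myoblast genes, 4325, 4288 and 4598 CPM, against 2432 to 3765 CPM in the controls. Knockout 6 had 2479 CPM of them. These sums rest mostly on 1 gene of the list, whose mean was 2814 CPM. The mean sums were 3223 CPM (controls) and 3686 CPM (knockouts). With each tested gene weighted equally, as mean log2 CPM relative to the mean over 12 libraries, knockout 6 had 0.11. The controls had -0.46 to 0.08 on that scale. Knockouts 3, 4 and 5 had 0.56, 0.39 and 0.28, and knockouts 1 and 2 had -0.01 and -0.33. Knockouts 3, 4 and 5 also had the lowest sums of 10 fibro-adipogenic progenitor genes, 6704, 7553 and 7643 CPM, against 8645 to 11894 CPM in the controls and 8796 to 11414 CPM in the other knockouts. Their sums of 10 macrophage genes were the lowest too, 5160, 5236 and 5971 CPM, against 6822 to 8258 CPM in the controls and 6505 to 8772 CPM in the other knockouts. The progenitor sum of knockout 6, which had the highest E2f8, lay within the control range at 10737 CPM, as did its macrophage sum at 7645 CPM. For the sum of 8 genes of differentiating myocytes, knockouts 3 and 5 lay above all controls with 11253 and 12772 CPM, against 5877 to 10187 CPM. Knockout 4 lay within that range. With each gene weighted equally, knockout 4 had 0.23, above the -0.45 to 0.15 of the controls. Knockouts 3, 5 and 6 had 0.55, 0.40 and 0.07 on that scale. Knockouts 1 and 2, whose E2f8 lay within the control range, had the highest adipocyte sums of the knockouts, 2431 and 2172 CPM, against 696 to 1497 CPM in knockouts 3 to 6. The part of these cell types in the level of E2f8 was not tested.

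The other regulators differed little. E2f1, the activator of S phase genes, ranged from 13.4 to 23.8 CPM in controls and from 11.5 to 22.7 CPM in knockouts. Ccne1, a cyclin E gene, had means of 10.5 ± 2.05 and 11.1 ± 2.12 CPM. Ccne2, the other, had 11.1 ± 2.26 and 10.5 ± 1.71 CPM. Their log2 fold changes were 0.04, 0.09 and -0.08, each with an interval that includes 0.

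**Figure D4:**
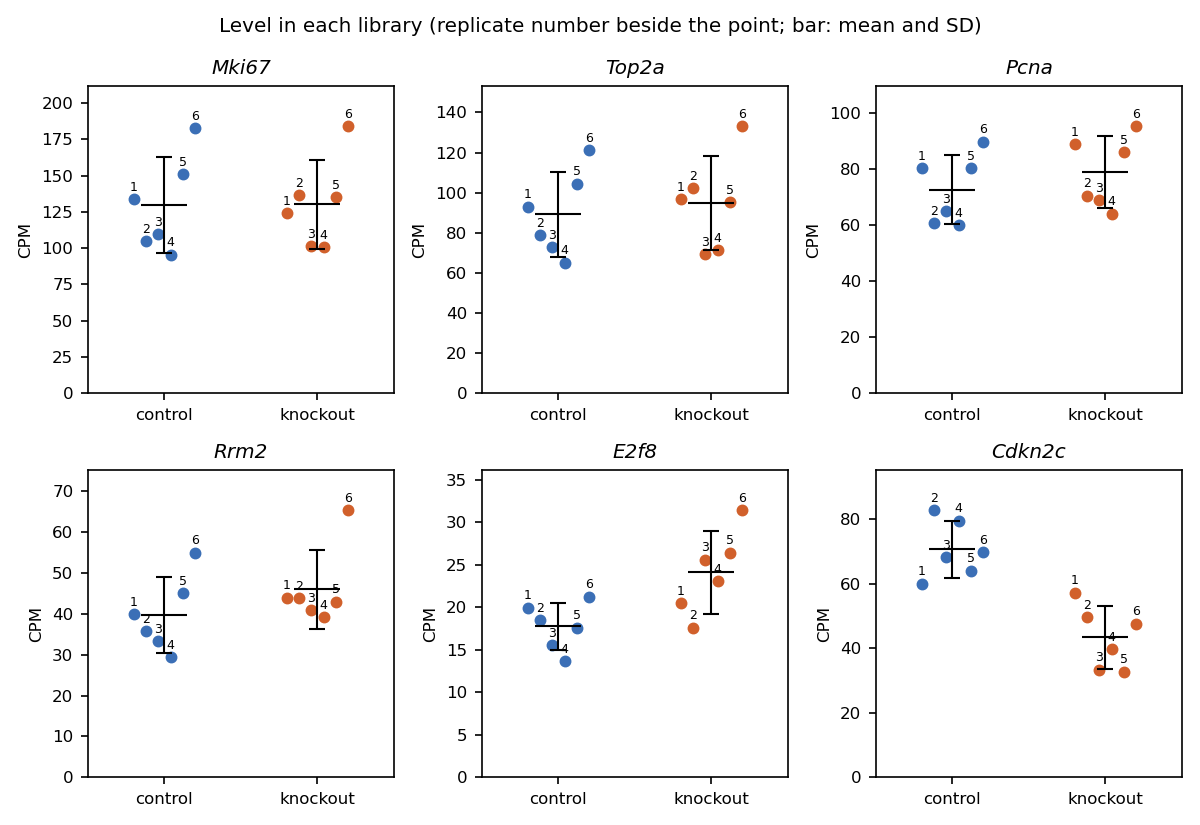
Level in CPM (vertical axis) of Mki67, Top2a, Pcna, Rrm2, E2f8 and Cdkn2c in each of 6 control and 6 knockout libraries, with replicate numbers beside the points and mean ± SD as bars. The groups overlap for the first 5 genes, with 4 of the 6 knockouts above all controls for E2f8, and are apart for Cdkn2c, which is not among the 49.

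The genes of origin licensing, the step that makes replication origins ready, all had small positive fold changes, with a sign that held under every alternative for Cdt1 and Mcm4 and turned in at least 1 for the others. In the 8 genes the log2 fold change was between 0.01 (Mcm7) and 0.11 (Mcm4), and the adjusted p was 0.892 or more by the edgeR quasi-likelihood test. Cdc6, which with Cdt1 loads the helicase, ranged from 5.501 to 11.1 CPM in controls and from 5.22 to 12.1 CPM in knockouts. Cdt1 had means of 18.1 ± 2.91 and 19.5 ± 2.29 CPM. The helicase genes Mcm2 to Mcm7 shared their extremes in the knockouts but not wholly in the controls. Mcm6 had 42.3 to 66.9 CPM in controls and 36.4 to 74.7 CPM in knockouts. The lowest knockout value was in knockout 4 and the highest in knockout 6 for Mcm2, Mcm3, Mcm4, Mcm5, Mcm6 and Mcm7. The lowest control was control 3 for Mcm2, Mcm3, Mcm4 and Mcm7 and control 4 for Mcm5 and Mcm6. The highest control was control 5 for Mcm2 and control 6 for the others.

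At the replication fork, Pcna, the sliding clamp of the polymerases, had 80.4, 60.7, 65.0, 59.9, 80.2 and 89.7 CPM in controls 1 to 6. In the knockouts it had 88.9, 70.5, 68.8, 64.1, 85.9 and 95.3 CPM. Its groups overlap over most of their range, and the log2 fold change was 0.12 (SE 0.13). Cdc45 and the GINS genes Gins1 and Gins2, partners of the helicase, had log2 fold changes of 0.11, -0.06 and -0.04.

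Of the genes of nucleotide supply, Rrm2 had the largest difference after E2f8. It encodes the small subunit of ribonucleotide reductase and had 39.9, 35.7, 33.3, 29.4, 45.0 and 54.9 CPM in controls 1 to 6. In the knockouts it had 43.9, 43.8, 40.9, 39.1, 42.9 and 65.3 CPM. Knockouts 1 to 5 lay within the control range and knockout 6 lay above it, and the log2 fold change of 0.21 (SE 0.16) had an interval of -0.12 to 0.55. Rrm1, its partner subunit, had 70.6 ± 12.1 and 71.8 ± 8.15 CPM. Tyms, thymidylate synthase, had 26.8 ± 4.09 and 26.1 ± 3.92 CPM, and Tk1, thymidine kinase, had 41.0 ± 8.58 and 39.8 ± 8.11 CPM. Uhrf1, which brings the maintenance DNA methyltransferase to newly copied DNA, had 39.8 ± 10.4 and 42.1 ± 11.5 CPM. Its spread was among the widest of the S phase genes, up to 59.97 CPM in knockout 6.

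Among the genes of mitotic entry, Cdk1, the kinase that drives it, had 41.5, 36.2, 33.6, 31.1, 43.3 and 55.5 CPM in controls 1 to 6. In the knockouts it had 45.9, 39.3, 31.8, 35.2, 41.3 and 56.5 CPM. The groups cover the same range, and the log2 fold change was 0.05 (SE 0.15). Ccna2, the cyclin A that serves both S phase and G2, had 42.9 ± 9.36 and 45.9 ± 9.69 CPM.

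The B-type cyclins, partners of CDK1 in mitosis, had slightly negative fold changes, although that of Ccnb1 was positive without some single libraries. Ccnb1 had 30.8 ± 6.35 CPM in controls and 30.0 ± 6.13 CPM in knockouts. Ccnb2 had the lowest log2 fold change of the 49, -0.14 (SE 0.13), with 25.2 to 36.4 CPM in controls and 21.5 to 37.7 CPM in knockouts. Foxm1, the transcription factor of late cell cycle genes, had 24.1 ± 4.98 and 26.002 ± 5.64 CPM.

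The 7 mitotic kinase genes gave log2 fold changes between -0.03 (Ttk) and 0.15 (Melk). Plk1, which acts at centrosomes and in cytokinesis, ranged from 16.1 to 25.6 CPM in controls and from 19.5 to 30.6 CPM in knockouts. Aurka and Aurkb, the kinases of the spindle poles and of the chromosomal passenger complex, had log2 fold changes of 0.06 and 0.03. Bub1, Bub1b and Ttk serve the spindle checkpoint, which holds chromosomes until they are attached. Bub1 had 13.3 ± 3.19 and 13.2 ± 3.62 CPM, Bub1b 23.4 ± 6.46 and 25.8 ± 5.77 CPM, and Ttk 9.35 ± 2.28 and 9.13 ± 2.44 CPM. In Melk, a kinase found in dividing progenitors, the range was 11.6 to 19.6 CPM in controls and 11.8 to 19.7 CPM in knockouts.

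At centromeres, Cenpa varied least among controls, from 39.99 to 46.5 CPM, and ranged from 35.7 to 51.8 CPM in knockouts. Cenpe, a motor that moves chromosomes to the middle of the spindle, had 20.9 ± 3.51 and 22.5 ± 4.68 CPM. Cenpf, a protein of the outer kinetochore, had 25.5 ± 6.69 and 24.4 ± 5.54 CPM. Birc5, the survivin subunit of the passenger complex, had the widest spread of the 49 among controls, from 21.03 to 44.7 CPM, and ranged from 21.5 to 38.1 CPM in knockouts.

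The 7 genes of spindle motors and microtubule binding had log2 fold changes between -0.03 (Tpx2) and 0.13 (Kif11). Kif11, the motor that pushes spindle poles apart, had 24.1 ± 4.82 and 26.4 ± 5.21 CPM. Kif20a and Kif23, motors of the central spindle, had log2 fold changes of 0.03 and -0.02, and Prc1, which bundles that spindle, 0.08. Tpx2, an activator of Aurora A, had 44.0 ± 6.57 and 43.1 ± 9.92 CPM. Nusap1 and Hmmr, which bind spindle microtubules, had log2 fold changes of 0.05 and 0.03.

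At the end of mitosis, Cdc20 and Ube2c serve the anaphase-promoting complex, as its activator and its ubiquitin-conjugating enzyme. Cdc20 ranged from 24.6 to 40.5 CPM in controls and from 25.0 to 39.7 CPM in knockouts. Anln, which organises the contractile ring of cytokinesis, ranged from 29.9 to 50.2 CPM in controls and from 29.9 to 53.0 CPM in knockouts. The groups of both genes overlap almost wholly, with log2 fold changes of -0.03 and -0.01.

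Ube2c varied little from library to library. Its level was 42.0, 33.8, 37.2, 33.2, 41.9 and 37.3 CPM in controls 1 to 6, and 40.7, 34.8, 32.5, 37.7, 43.6 and 40.7 CPM in knockouts 1 to 6. Neither library 6 was the highest of its group, and the ratio of highest to lowest was 1.26 in controls and 1.34 in knockouts. The exons of Ube2c share 22.8% of their bases with the exons of Tnnc2, a troponin gene of fast muscle fibres on the opposite strand. Whether reads of Tnnc2 entered the count of Ube2c was not tested.

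S phase and mitosis genes were compared library by library as the mean log2 CPM of each list relative to its mean over the 12 libraries. The S phase level was 0.04, -0.18, -0.29, -0.27, 0.17 and 0.32 in controls 1 to 6, and 0.07, 0.12, -0.15, -0.28, 0.03 and 0.40 in knockouts 1 to 6. The mitosis level was 0.09, -0.17, -0.22, -0.35, 0.19 and 0.38 in the controls and 0.11, 0.10, -0.31, -0.25, 0.00 and 0.44 in the knockouts. Both lists put library 6 highest and libraries 3 and 4 lowest in each group.

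The balance between the lists varied less than either list. S phase minus mitosis ran from -0.06 to 0.09 in controls and from -0.04 to 0.16 in knockouts, so the groups overlapped. The largest values were those of knockout 3 (0.16) and control 4 (0.09). Knockout 3 was the lowest knockout for 19 of the 28 mitosis genes and for 3 of the 21 S phase genes, whereas knockout 4 was the lowest for 9 and 16. Summed over the genes, S phase CPM was 0.706 to 0.792 times mitosis CPM in controls and 0.724 to 0.832 times in knockouts.

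Between groups, the median log2 fold change was 0.07 for the 21 S phase genes, 16 of them positive, and 0.03 for the 28 mitosis genes, 18 of them positive. The difference of the medians was 0.04. It was between 0.01 and 0.07 when 1 library was left out, and -0.01 with the mitochondrial share as a covariate.

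**Figure D5:**
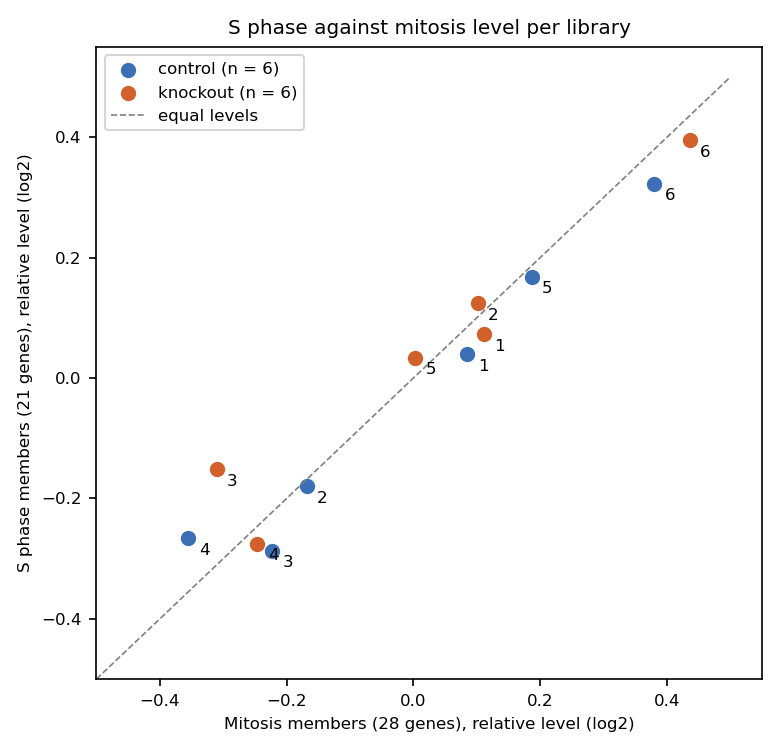
Level of the 21 S phase genes (vertical axis) against that of the 28 mitosis genes (horizontal axis) in each library, as mean log2 CPM relative to the mean over 12 libraries, with replicate numbers beside the points and a dashed line at equal levels. Control and knockout libraries lie mixed along the line from libraries 3 and 4 to libraries 6, and knockout 3 stands farthest above it.

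Levels were compared between genes per length, in FPKM as the authors deposited them, as means over all 12 libraries. The median was 5.94 FPKM for the 49 genes and 4.29 FPKM for all genes tested, so as transcripts these genes lay near the middle of the expressed range of whole muscle. Pcna was the highest at 31.3 ± 5.21 FPKM (SD, n = 12), above 90.0% of the genes tested. After it came Ccnb2 (18.9 ± 3.17 FPKM), Cdc20 (17.2 ± 3.28), Rrm2 (15.3 ± 3.48), Ube2c (14.5 ± 1.45) and Mki67 (12.8 ± 3.03). Pcna stood above Ccnb2 by more than the SD of either gene. From Ccnb2 to Ube2c each gene lay within 1 SD of the next, and Mki67 lay below Ube2c by more than the SD of Ube2c but less than its own. The lowest Pcna library, at 24.6 FPKM, was level with the highest Ccnb2 library, also at 24.6 FPKM. The lowest were Ttk (1.86 ± 0.460 FPKM), Cenpf (1.60 ± 0.381) and Cdc6 (1.54 ± 0.427), which also overlapped.

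The subunits of the helicase, which join 1 to 1 in the complex, were not at equal levels in this unit. Mcm3 to Mcm7 lay between 10.3 and 11.3 FPKM on average, and Mcm2 at 5.30 ± 0.894 FPKM. The ratio of Mcm2 to the mean of the other 5 was 0.494 ± 0.033 (SD, n = 12) and lay between 0.444 and 0.558 in every library. The table gives Mcm2 a length of 6956 bases, the longest of the 6, and FPKM divides by that length. Of the B-type cyclins, Ccnb2 had 2.67 ± 0.234 times the FPKM of Ccnb1, between 2.37 and 3.02 times in single libraries. This ratio too depends on length, which is 1531 bases for Ccnb2 and 4217 for Ccnb1. In CPM, which do not divide by length, the means were 30.5 (Ccnb2) and 30.8 (Ccnb1) in controls. In knockouts they were 27.8 and 30.0 CPM.

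Beyond the 49 genes, the rest of the cell cycle machinery was read from lists of other genes. Of 30 other replication genes and 35 other mitosis genes, all tested, none passed (edgeR quasi-likelihood test, 0 also at an unadjusted p under 0.05, and 0 with DESeq2 or limma-voom), with medians of 0.07 and 0.02 on the log2 scale. The 3 with the smallest p were Pold1 (0.19), Rfc3 (-0.09) and Gins4 (-0.10) in replication. In mitosis they were Cks1b (-0.21), Cdkn3 (-0.25) and Spc24 (0.23), with adjusted p-values of 0.627 or more by edgeR. Of 13 genes of the E2F family and the DREAM complex, 0 passed at an adjusted p and 1, E2f2, had an unadjusted p under 0.05, against 9.47% of all genes tested. Its log2 fold change was 0.29 (edgeR adjusted p = 0.509), beside 0.15 each for E2f4 and Tfdp2. Of 10 replication-dependent histone genes, whose transcripts mostly lack the poly(A) tail by which the libraries were selected, 1, Hist1h2ae, passed the count filter, with 0.5004 ± 0.224 and 0.549 ± 0.191 CPM.

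Of 16 inhibitors and exit genes, 1 fell, Cdkn2c, and none rose, against 0.750% of all genes tested that fell and 0.0488% that rose. At an unadjusted p under 0.05 there were 3 (Cdkn2c, Cdkn1a and Btg1), against 9.47% of all genes tested. Cdkn2c encodes p18INK4C, which inhibits the cyclin D kinases CDK4 and CDK6. Its level was 60.03, 82.8, 68.2, 79.5, 64.0 and 69.7 CPM in controls 1 to 6, and 57.2, 49.6, 33.3, 39.7, 32.8 and 47.6 CPM in knockouts 1 to 6. Every knockout lay below every control, with a log2 fold change of -0.70 (SE 0.14, edgeR quasi-likelihood adjusted p = 0.0299). The call was lost without any one of controls 2, 3 and 4 or knockouts 3, 4, 5 and 6, with adjusted p-values from 0.0115 to 0.0884 when 1 library was left out. Among the knockouts, numbers 1 and 2 had the highest Cdkn2c levels and the highest adipocyte sums, and the part of adipocytes in this fall was not tested. Cdkn1a, which encodes the inhibitor p21, had 288 ± 53.6 and 375 ± 73.9 CPM (0.38, edgeR adjusted p = 0.364), and Btg1, an antiproliferative gene, had 152 ± 20.3 and 130.1 ± 11.7 CPM (-0.22, adjusted p = 0.451).

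Of 11 G1 cyclins and kinases, 0 passed the edgeR test at an adjusted p, and 3 had an unadjusted p under 0.05, against 9.47% of all genes tested. These 3 were Ccnd2, Ccnd3 and Cdk6, a pair of cyclin D genes and a kinase that they activate. Ccnd2 ranged from 46.0 to 64.4 CPM in controls and from 31.6 to 46.6 CPM in knockouts, with means of 52.6 ± 7.22 and 37.7 ± 6.15 CPM. Ccnd3 ranged from 68.4 to 99.0 CPM in controls and from 93.6 to 113 CPM in knockouts, with means of 79.9 ± 11.5 and 100.1 ± 7.14 CPM. The groups overlap in both genes. The log2 fold changes were -0.48 (edgeR adjusted p = 0.0769) for Ccnd2, 0.33 (0.133) for Ccnd3 and 0.28 (0.471) for Cdk6. With DESeq2 and with limma-voom the first 2 passed, Ccnd2 at 0.0157 and 0.0136 and Ccnd3 at 0.0389 and 0.0460.

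Some of the 49 counts could hold reads of other genes. No source used here gives the strand setting of the read counting, and 7 of the 49 genes share at least 10% of their exonic bases with a gene on the opposite strand. These are Gins2 (67.3%, with Gse1), Kif20a (29.3%, Cdc23), Ube2c (22.8%, Tnnc2), Ccne2 (17.4%, Ints8), Ccna2 (12.5%, Exosc9), E2f8 (11.2%, Gm2788) and Prc1 (11.1%, Rccd1). In 5 genes at least 10% of the 50-base words of the transcript also occur in another gene. These are Ccnb1 (42.1%, with Ccnb1-ps), Pcna (31.8%, Pcna-ps2), Mcm7 (26.02%, Gm5487), Uhrf1 (18.9%, Gm5648) and Cdc20 (11.4%, Gm7856). The Pcna pseudogene had counts worth 28.8 ± 7.21 CPM (controls) and 19.0 ± 8.39 CPM (knockouts). It was thus lower in knockouts on average, by more than the 72.6 CPM (controls) and 78.9 CPM (knockouts) of Pcna differ the other way. The sign of the fold change of Pcna was not tested with the counts of both added together, nor is it known how reads that match both were counted.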

How the data were processed

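The authors deposited a table of whole-number counts per gene for 12 libraries and a table of FPKM, in which values of a library go with count over gene length. Per the submitters' processing notes, fastp, HISAT2 2.0.5 and featureCounts were used on GRCm38 (mm10). Per the labels' protocols, poly(A) RNA was selected, and the text covers directional as well as non-directional libraries. No source used here gives the strand setting of the counting.

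The analysis used edgeR 4.0.16 under R 4.3.3. filterByExpr (minimum count 10, minimum total 15) kept 16393 genes. After TMM scaling, groups were compared with the robust quasi-likelihood test, and p-values were adjusted by Benjamini-Hochberg over these 16393 genes, with 0.05 as threshold. Log2 CPM took a prior count of 2. Scripts were tested on simulated data. Alternatives were RLE and upper quartile scaling, DESeq2 1.42.0, limma 3.58.1 (voom with quality weights, and log2(FPKM + 1)), all genes with a count, a block for the replicate number, the mitochondrial share as a covariate, and each library left out in turn. Leaving out the 3 libraries of low fibre counts was chosen after seeing the data.

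The 49 genes and all lists were chosen with earlier results of these data known. Named genes are the 49, Pparg, and of each other pathway list up to 3 with the smallest p and any past the threshold. Cell types are given as sums over their lists. All 30 within-group pairs of libraries differed beyond sampling noise (chi-square per degree of freedom 12.9 to 157), so none was counted as a duplicate. The labels do not pair samples of equal replicate number, and the main fit treated them as unpaired. Gene models and shared sequence come from GENCODE M21, where 48 of the 49 genes have the same coordinates as in the deposited table.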

Additional observations from a re-analysis of the deposited data

Results flagged for a closer look

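For each of the 49 genes, the highest and lowest library of each group were compared with the other 5 by Dixon's criterion for a gap at the end of a group, which chance meets in about 1 in 20 groups. Of 98 groups examined, 3 met it. Rrm2 had 65.3 CPM in knockout 6, against 39.1 to 43.9 CPM in the other knockouts. Bub1 had 20.1 CPM in knockout 6, against 10.2 to 13.2 CPM in the other knockouts. Melk had 19.6 CPM in control 6, against 11.6 to 14.3 CPM in the other controls.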

How the results depend on the processing

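Under 21 alternatives, E2f8 with limma-voom was the 1 of 1029 values of the 49 genes that passed the threshold, and 122 values had another sign than the main one. Of the 49 genes, 15 kept their sign throughout, E2f8 and Rrm2 among them. Under every alternative the median fold change of each list moved by less than the SD of its level between control libraries. That SD, 0.25 for S phase and 0.28 for mitosis, is wider than the main medians of 0.07 and 0.03. A median can therefore change sign within it, and the rule does not show that the medians are stable. When 1 library was left out they ran from -0.045 to 0.15 (S phase) and from -0.053 to 0.13 (mitosis), with both signs in each list. The cause of the changes below was not tested.

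Of all genes tested, 387 passed with DESeq2, 393 with limma-voom, 236 with the replicate block, 9 without the 3 libraries of low fibre counts, and 6 (without knockout 3) to 214 (without knockout 2) without single libraries, against 131. Of the genes on the other cell cycle lists, 3 passed with DESeq2 and 3 with limma-voom (Ccnd2, Ccnd3 and Cdkn2c). With the replicate block, with the mitochondrial share as a covariate and without knockout 2, 2 passed (Ccnd2 and Cdkn2c). Without the low fibre libraries 0 passed, and 0 to 2 without single libraries. Pparg had -1.12 without a count filter (adjusted p = 0.0979), -1.01 without the low fibre libraries (adjusted p = 0.234) and -1.32 to -1.002 without single libraries, in edgeR fits.

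Libraries of equal replicate number had correlations of their deviations from -0.13 to 0.46. Control 6 and knockout 6, at 0.46, were each the best match of the other. Such correlations cannot decide whether equal numbers mark pairs or a shared batch, and the labels name neither. With the replicate block 0 of the 49 passed, 3 had an unadjusted p under 0.05 and none had another sign.

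The other signs were, on the log2 scale, Bub1 0.0053 and Anln 0.0021 with upper quartile scaling. With limma-voom they were Mcm6 -0.013, Mcm7 -0.0024, Aurkb -0.0041, Kif23 0.012, Nusap1 -0.024, Hmmr -0.042 and Hist1h2ae -0.043. With the mitochondrial share as a covariate they were E2f1 -0.0051, Mcm5 -0.0037, Mcm7 -0.024, Mki67 -0.047, Aurkb -0.031 and Kif20a -0.011. Without the low fibre libraries they were Mcm5 -0.012, Gins1 0.010, Uhrf1 -8.0e-05, Mki67 -0.029, Cenpa -0.0056, Nusap1 -0.083, Hmmr -0.024, Ube2c -0.023 and Hist1h2ae -0.16. When 1 library was left out, 33 of the 49 genes and Hist1h2ae (-0.082 to 0.26) had values of both signs. Their log2 fold changes ran as follows: Ccne2 -0.17 to 0.0092, E2f1 -0.045 to 0.15, Cdc6 -0.070 to 0.19, Mcm2 -0.023 to 0.15, Mcm3 -7.6e-04 to 0.19 and Mcm5 -0.071 to 0.14. Next were Mcm6 -0.046 to 0.17, Mcm7 -0.054 to 0.073, Gins1 -0.11 to 0.046, Gins2 -0.12 to 0.057, Rrm1 -0.031 to 0.10 and Tyms -0.11 to 0.013. Further ranges were Tk1 -0.10 to 0.047, Uhrf1 -0.046 to 0.20, Ccna2 -0.010 to 0.19, Ccnb1 -0.15 to 0.033, Cdk1 -0.055 to 0.17 and Mki67 -0.12 to 0.13. Then came Top2a -0.037 to 0.19, Aurkb -0.089 to 0.13, Bub1 -0.17 to 0.070, Ttk -0.16 to 0.093, Cenpa -0.025 to 0.082 and Cenpf -0.16 to 0.067. Others were Birc5 -0.17 to 0.033, Kif20a -0.055 to 0.17, Kif23 -0.15 to 0.13, Nusap1 -0.046 to 0.12, Prc1 -0.024 to 0.20 and Tpx2 -0.15 to 0.046. The last were Hmmr -0.052 to 0.098, Cdc20 -0.097 to 0.048 and Anln -0.12 to 0.068.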

Other observations

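Tnnc2, the fast fibre troponin C gene that overlaps Ube2c, was counted at 3 to 45 reads per library. The other fast troponin genes were counted at 18512 to 91711 reads (Tnni2) and 42999 to 166315 reads (Tnnt3). Of the 800 exonic bases of Tnnc2, 592 (74.0%) lie within exons of Ube2c on the opposite strand, which make up 22.8% of the exonic bases of Ube2c. Tnnc2 was looked at after the values of Ube2c were seen. The summed level of 10 T and NK cell genes was between 14.9 and 34.0 CPM in controls and between 26.8 and 54.2 CPM in knockouts, with 10 of 10 positive in fold change and 0 past the edgeR test (5 at an unadjusted p under 0.05). Of all genes tested, 49.5% were positive and 9.47% had an unadjusted p under 0.05. The 9 tested satellite cell and myoblast genes and the 8 differentiating myocyte genes were likewise all positive with 0 past the edgeR test, and 4 of each had an unadjusted p under 0.05. The 10 fibro-adipogenic progenitor genes, those of the targeted cells, had 7 negative and 3 positive fold changes, with 0 past the edgeR test and 3 at an unadjusted p under 0.05. Their summed level was 10481 ± 1174 CPM (SD, n = 6) in controls and 8808 ± 1891 CPM in knockouts, and the ranges overlap.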
